A study of Homo sapiens with 17 samples.

Results

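RRBP1 and the ER translocon are described here as a set of 10 genes across 6 groups of libraries from HEK293T, a cell line of human embryonic kidney origin. The genes were RRBP1, KTN1, SEC61A1, SEC61B, SEC61G, SEC62, SEC63, SSR1, SSR2 and SSR3. They were matched by symbol in the gene count table, where each had 1 of the 23368 rows. The assay was acRIP-seq of poly(A) RNA, an immunoprecipitation with an antibody to N4-acetylcytidine (ac4C) followed by Smart-seq2 library preparation and sequencing. WT cells and siTDP43 cells, in which the TARDBP product TDP43, a protein that binds RNA, had been knocked down with siRNA, each gave input RNA, an anti-ac4C pull-down (IP) and a pull-down with control immunoglobulin G (IgG). Each group had 3 libraries except WT IgG, which had 2. The labels name no control siRNA for the WT cells, so transfection, knockdown and any difference in handling between the 2 sets of cells cannot be told apart.

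The endoplasmic reticulum (ER) translocon is the membrane machinery through which newly made secretory and membrane proteins enter the ER. The SEC61 channel, made of the alpha, beta and gamma subunits encoded by SEC61A1, SEC61B and SEC61G, forms the pore, and SEC62 and SEC63 assist it with clients that engage the channel late or need the lumenal chaperone BiP. The translocon-associated protein (TRAP) complex, which includes the products of SSR1, SSR2 and SSR3, sits beside the channel and helps some signal sequences to open it. RRBP1 (p180) and kinectin (KTN1) are coiled-coil proteins of the ER membrane, RRBP1 a ribosome-binding protein of ER sheets and KTN1 a partner of kinesin, and they are grouped here as ribosome receptors.

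RRBP1 was one of the transcripts for which the study made an in vitro RNA probe, and the stretch of that probe in which the unaltered and the mutated version differ is shown because the mutation removes cytidines, the base that carries ac4C. The site lies in exon 15 of 25 of the canonical RRBP1 transcript, in coding sequence in all 6 annotated transcripts that span it (GENCODE, hg19, chr20:17602340-17602368, minus strand). Capitals mark the bases that differ, and positions are counted from 1 at the 5′ end of the 29 bases printed.
RRBP1 site, unaltered: gaagcaccCgcCagCUCCCgCggagcccu
RRBP1 site, mutated: gaagcaccUgcGagUAGUAgGggagcccu
The changes were C9U, C12G, C15U, U16A, C17G, C18U, C19A and C21G. The motif UCCCAGCU, which the study names for ac4C, was searched as TCCCAGCT on the sense strand of the merged exons of each gene. It occurred once in RRBP1, in coding sequence of exon 10 (chr20:17608219-17608226, minus strand), and is shown in capitals with its flanks.
RRBP1 ac4C motif match: gcggagaacTCCCAGCTcacagagag
The motif UGUGCG, named for TDP43 and searched as TGTGCG in the same way, occurred once in RRBP1, in coding sequence of exon 8 (chr20:17614178-17614183, minus strand).
RRBP1 TDP43 motif match: gtcagaggcTGTGCGgcaagatga
Neither motif overlapped the probe site or the other motif. Among 15012 tested genes with exon sequence, 19.7% held TCCCAGCT and 31.0% held TGTGCG, and among the 3811 of these with an exon length near that of RRBP1 the shares were 21.8% and 34.9%. TCCCAGCT also occurred 2 times in SEC63 and 2 times in SSR1, and TGTGCG 1 time in SSR1, all in untranslated exon sequence. No match to these letters lay in the merged exons of KTN1, SEC61A1, SEC61B, SEC61G, SEC62, SSR2 or SSR3.

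The deepest libraries were those of WT input (up to 36583436 counts) and the shallowest those of siTDP43 IgG (3013989 to 3436811 counts), with siTDP43 IP (8610070 to 15736165) and WT IgG (9022250 to 9466855) between them. TARDBP, the gene targeted by the siRNA, was 153 ± 3.87 CPM (normalised counts scaled to 1000000 per library; SD, n = 3) in WT input and 102 ± 3.67 in siTDP43 input. The 2 input groups did not overlap, with TARDBP 33.0% lower after knockdown (log2 change -0.57, edgeR adjusted p = 6.55e-13; exact two-sided permutation p = 0.1, the smallest that 3 against 3 libraries allow). Of 8 HEK293T-like markers, 6 exceeded 1 CPM in every library of both input groups, and PAX2 and LHX1 stayed under 1 CPM in siTDP43 input. Their summed level was 961 to 996 CPM in WT input and 565 to 600 CPM in siTDP43 input. Of 7 markers of other cells, PTPRC, PECAM1, KRT5 and TYR had no count in any input library, and DCN and ALB stayed under 1 CPM. The fibroblast marker COL1A1 exceeded 1 CPM in every library of both input groups. The summed level of the 7 was at most 8.42 CPM.

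Levels are shares of a library, so a lower level of a gene cannot be told apart in them from a higher level of other RNA. In WT input, RRBP1 was the lowest and SEC61G the highest of the 10 genes when CPM was divided by exon length. RRBP1 had 4.33 ± 0.145 CPM per kb, SEC63 8.58 ± 0.518, KTN1 10.02 ± 0.104 and SEC62 10.6 ± 0.235 (SD, n = 3 each). SSR1 and SEC61A1, with 26.2 ± 0.499 and 48.4 ± 1.74 CPM per kb, stood between these and SSR3, which had 131 ± 2.20. SSR2 followed with 398 ± 1.58, SEC61B with 554 ± 7.58 and SEC61G with 683 ± 18.8 CPM per kb. No 2 neighbours in this order overlapped between their libraries. In WT IP the order differed, with RRBP1 in place 3 at 312 ± 11.1 CPM per kb, behind SEC61G (681 ± 34.0) and SEC61B (399 ± 26.3), and KTN1 in place 4 at 149 ± 7.72. Only SEC63 and SEC61A1 overlapped as neighbours in WT IP. RRBP1 was again the lowest of the 10 in siTDP43 input (1.11 ± 0.315 CPM per kb) and in siTDP43 IP (2.83 ± 0.856).

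**Figure D1:**
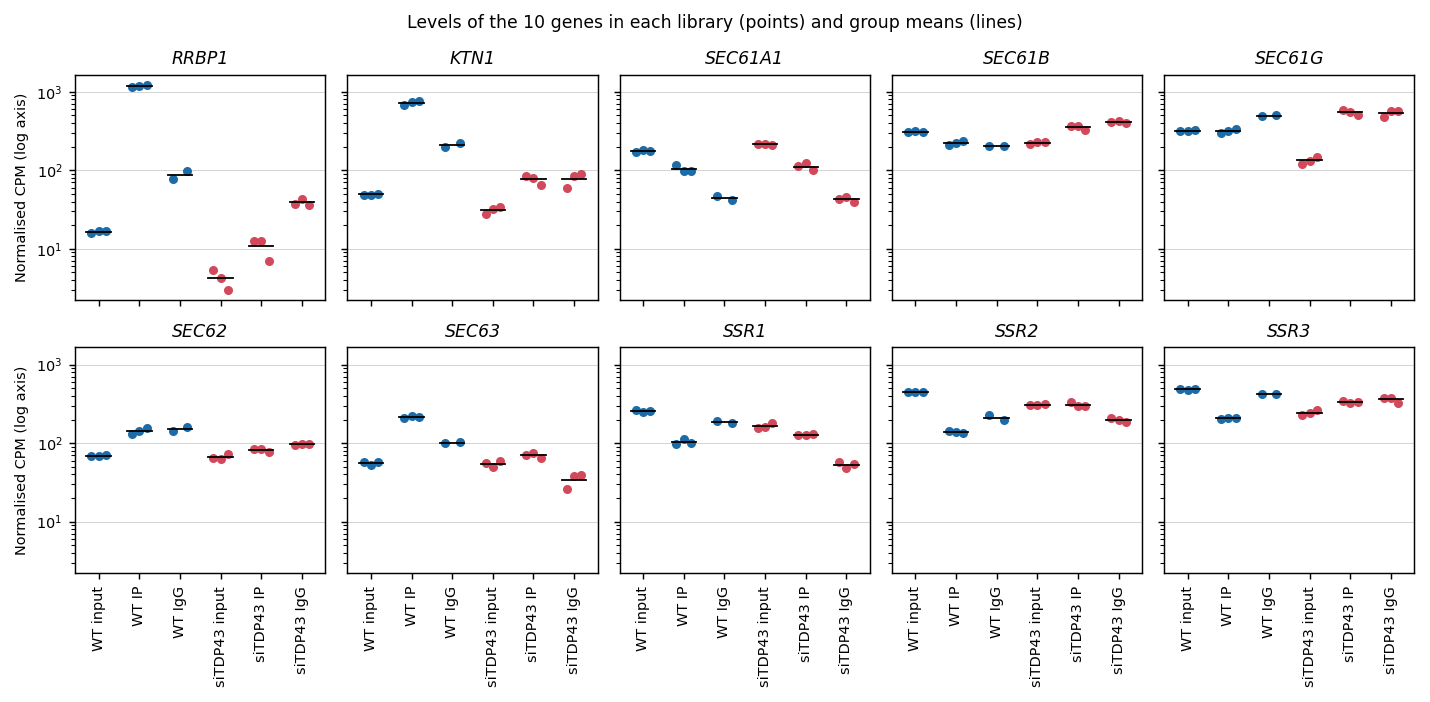
Normalised CPM on a log axis for each of the 10 genes, with 1 panel per gene, 1 point per library (blue WT, red siTDP43) and a line at each group mean. RRBP1 ran from 2.98 CPM in a siTDP43 input library to 1228 CPM in a WT IP library, the widest range of the 10 panels.

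RRBP1, the ribosome-binding protein of ER sheets, was the member most enriched by the ac4C antibody in WT cells, and in siTDP43 its enrichment was smaller over input and absent over IgG. The WT input libraries held 15.8, 16.8 and 16.6 CPM of RRBP1, the WT IP libraries 1144, 1182 and 1228 CPM, and the WT IgG libraries 77.7 and 98.9 CPM. No WT group overlapped another, and the IgG control lay between input and IP. In siTDP43, RRBP1 was at 5.36, 4.28 and 2.98 CPM in input, at 12.6, 12.6 and 6.98 CPM in IP, and at 36.7, 43.7 and 36.6 CPM in IgG. Here the groups were again apart, but the order had changed, with every IgG library above every IP library. The mean RRBP1 level in IP was 111-fold lower in siTDP43 than in WT, whereas in IgG it was 2.26-fold lower. The siTDP43 values rest on few reads: an input library held 84 to 170 counts, an IP library 56 to 170 and an IgG library 100 to 108. Mates appear to have been counted singly, so these counts come from fewer read pairs.

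For RRBP1 the log2 fold change of WT IP was 6.18 ± 0.08 over input (SE; edgeR adjusted p = 9.73e-27) and 3.73 ± 0.08 over IgG (adjusted p = 3.57e-21). It took place 156 of 14751 genes over input and place 2422 over IgG, counted from the highest. WT IgG itself exceeded input by 2.45 ± 0.08. In siTDP43 IP exceeded input by 1.51 ± 0.25 (adjusted p = 8.62e-06) but lay below IgG by a log2 fold change of -1.92 ± 0.25 (adjusted p = 6.50e-07), and IgG exceeded input by 3.43 ± 0.26. The interaction of genotype and fraction, siTDP43 minus WT, was -4.79 ± 0.20 for IP over input (adjusted p = 5.04e-22), -5.56 ± 0.22 for IP over IgG (adjusted p = 2.61e-22) and 0.77 ± 0.21 for IgG over input (adjusted p = 0.00126). RRBP1 input mRNA was itself lower in siTDP43, by a log2 change of -1.95 ± 0.14 (adjusted p = 1.65e-13). The drop of RRBP1 in IP was therefore larger than its drop in input, and both interactions kept their sign and call in every alternative run. The siTDP43 IP over input value of RRBP1 did not stay above 2-fold when each library's trend of counts with exon GC content was removed (0.97), nor with limma on length-scaled counts, log2(FPKM + 1) (0.72). Its interaction for IgG over input lost its call with the GC trend removed (0.31, adjusted p = 0.172) and turned to -0.048 on log2(FPKM + 1) (limma adjusted p = 0.855).

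KTN1, the kinectin gene, had the signs of RRBP1 in both IP interactions and in the input change, with smaller values. Its interaction for IgG over input had the opposite sign (-0.79 against 0.77 for RRBP1). In siTDP43 its IP was not called against IgG, whereas that of RRBP1 lay below IgG. Its WT libraries held 48.9, 49.0 and 49.8 CPM in input, 688, 741 and 761 CPM in IP, and 199 and 224 CPM in IgG. As for RRBP1, these groups did not overlap and IgG lay in the middle. The siTDP43 libraries held 27.9, 31.8 and 34.4 CPM of KTN1 in input, 85.7, 80.5 and 64.7 CPM in IP, and 59.8, 84.2 and 89.7 CPM in IgG, so that IP and IgG overlapped. KTN1 IP exceeded input by a log2 fold change of 3.90 ± 0.06 in WT (adjusted p = 4.84e-25) and by 1.45 ± 0.13 in siTDP43 (adjusted p = 1.0e-09). Over IgG the KTN1 values were 1.77 ± 0.06 in WT (adjusted p = 3.02e-17) and -0.09 ± 0.14 in siTDP43 (adjusted p = 0.591). The interactions of KTN1 were -2.59 ± 0.13 over input (adjusted p = 1.49e-19) and -1.80 ± 0.15 over IgG (adjusted p = 4.14e-13). The KTN1 interaction for IgG over input, -0.79, lost its call with the GC trend removed (-0.17, adjusted p = 0.326). Its input mRNA was lower in siTDP43 by a log2 change of -0.65 ± 0.07 (adjusted p = 8.77e-10).

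The genes whose log2 CPM over the 17 libraries was most like that of RRBP1 were EMD, ATRX, HIRIP3, EEA1 and SRRM2, with Pearson's r of 0.983, 0.978, 0.976, 0.975 and 0.975 among 10141 genes with a mean of at least 100 counts. For KTN1 they were RBM25, LUC7L3, PRRC2C, HMGN5 and ANKRD11, with r of 0.994, 0.993, 0.991, 0.990 and 0.987. RRBP1 and KTN1 had an r of 0.964 with each other. These values describe libraries that share the contrast of IP against input and have no test. Pearson's r does not measure the size of a change. From WT input to WT IP the mean went from 16.4 to 1185 CPM for RRBP1, from 141 to 537 for EMD and from 36.9 to 1890 for ATRX. Among the members, r of RRBP1 with SEC62 and SEC63 was 0.865 and 0.764, and with SSR2 -0.816.

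The SEC61 channel genes were not enriched in IP over input in WT, and the 3 subunits differed from each other. SEC61A1, which encodes the pore-forming alpha subunit, held 171, 183 and 174 CPM in WT input, 116, 98.8 and 98.1 CPM in WT IP, and 47.7 and 41.4 CPM in WT IgG. In siTDP43 it held 219, 214 and 209 CPM in input, 112, 122 and 100 CPM in IP, and 43.3, 46.1 and 39.9 CPM in IgG. SEC61A1 thus lay below input in both pull-downs of both genotypes, with IgG the lowest each time. Its log2 fold change of IP over IgG was 1.21 ± 0.09 in WT (adjusted p = 1.56e-11) and 1.30 ± 0.11 in siTDP43 (adjusted p = 6.64e-10), against -0.75 ± 0.07 and -0.78 ± 0.08 for IP over input. For SEC61A1 neither IP interaction passed, at -0.18 ± 0.11 over input (adjusted p = 0.137) and 0.15 ± 0.15 over IgG (adjusted p = 0.427), but this depended on the processing. The SEC61A1 interaction over input passed with total count scaling (-0.48, adjusted p = 0.000265), on log2(FPKM + 1) (-0.47) and with DESeq2 or its size factors (-0.25 each), and that over IgG passed with the GC trend removed (0.55). It was also the only member that rose in siTDP43 input, by 0.29 ± 0.04 on the log2 scale (adjusted p = 2.76e-07). SEC61A2, a close paralog, has its own row in the table, and reads that fit both genes equally well were not counted because only unique alignments were kept.

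SEC61G, the gamma subunit, had the largest change of the 3 in input and in IP over input. It held 314, 312 and 328 CPM in WT input, 301, 319 and 332 CPM in WT IP, and 485 and 502 CPM in WT IgG. WT input and WT IP overlapped and IgG was higher than both. In siTDP43 the values were 122, 130 and 149 CPM in input, 588, 552 and 505 CPM in IP, and 483, 574 and 575 CPM in IgG. Input was thus lower than in WT, and IP and IgG, which overlapped, were both higher than siTDP43 input. SEC61G IP exceeded input by a log2 fold change of 2.19 ± 0.08 in siTDP43 (adjusted p = 2.35e-16), but its value over IgG was -0.06 ± 0.08 (adjusted p = 0.503). The SEC61G interaction was 2.04 ± 0.10 over input (adjusted p = 7.78e-20) and 0.65 ± 0.11 over IgG (adjusted p = 1.64e-06), the latter turning to -0.24 with the GC trend removed. IgG over input also differed for SEC61G, by 1.39 ± 0.11 (adjusted p = 5.11e-14). SEC61G input fell by 1.24 on the log2 scale (SE 0.05, adjusted p = 4.69e-20).

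SEC61B, the beta subunit, held 307, 315 and 312 CPM in WT input, 209, 226 and 239 CPM in WT IP, and 205 and 206 CPM in WT IgG. Its siTDP43 libraries held 218, 229 and 228 CPM in input, 363, 367 and 325 CPM in IP, and 407, 429 and 401 CPM in IgG. Both pull-downs lay below input in WT and above it in siTDP43. The SEC61B interaction was 1.12 ± 0.09 over input (adjusted p = 6.91e-14), -0.36 ± 0.10 over IgG (adjusted p = 0.00144) and 1.47 ± 0.10 for IgG over input (adjusted p = 3.94e-16). SEC61B and SEC61G are the shortest members, with 562 and 466 exonic bases against 3636 for SEC61A1.

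SEC63, which recruits BiP to the channel, was the only channel partner that IP enriched over both controls in WT. It held 58.1, 51.9 and 57.3 CPM in WT input, 207, 219 and 213 CPM in WT IP, and 100 and 103 CPM in WT IgG. The 3 WT groups did not overlap. In siTDP43 the levels of SEC63 were 55.3, 50.3 and 58.5 CPM in input, 70.3, 75.7 and 64.2 CPM in IP, and 25.7, 38.4 and 38.8 CPM in IgG, so that input kept its level and both pull-downs were lower than in WT. SEC63 IP exceeded input by a log2 fold change of 1.94 ± 0.06 in WT and 0.51 ± 0.12 in siTDP43, and the interaction was -1.58 ± 0.12 (adjusted p = 6.83e-14). Over IgG the values were 1.05 ± 0.07 and 0.96 ± 0.15, and that interaction was -0.03 ± 0.16 (adjusted p = 1.0), against -0.93 with the GC trend removed (adjusted p = 2.20e-06). The siTDP43 value of SEC63 over IgG was past 2-fold with total count scaling (1.17), on log2(FPKM + 1) (1.02) and in 1 fit of all libraries (1.03). It was also past 2-fold without siTDP43 IP replicate 3, at 1.005, and without siTDP43 IgG replicate 2 or 3, at 1.05 and 1.06. IgG over input of SEC63 differed by -1.55 ± 0.15 (adjusted p = 3.33e-11), about as much as IP over input.

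SEC62, the other channel partner, held 68.0, 69.5 and 71.1 CPM in WT input, 132, 142 and 156 CPM in WT IP, and 144 and 160 CPM in WT IgG. WT IP and WT IgG overlapped, and both lay above input. In siTDP43 it held 65.5, 62.8 and 73.1 CPM in input, 83.8, 83.8 and 77.0 CPM in IP, and 95.5, 96.3 and 98.6 CPM in IgG. SEC62 IP exceeded input by 1.05 ± 0.06 on the log2 scale in WT (adjusted p = 2.03e-13), which fell to 0.99 without WT IP replicate 3, and by 0.44 ± 0.09 in siTDP43. The interaction was -0.76 ± 0.11 over input (adjusted p = 2.34e-07) and -0.16 ± 0.13 over IgG (adjusted p = 0.317), the latter passing with DESeq2 or its size factors (-0.38 each) and with the GC trend removed (-1.21). Input levels of SEC62 and SEC63 overlapped between genotypes, with log2 changes of -0.04 ± 0.06 (adjusted p = 0.468) and -0.02 ± 0.06 (adjusted p = 0.776). With the GC trend removed both input changes passed, at -0.27 for SEC62 and -0.28 for SEC63, and that of SEC62 passed with total count scaling at -0.14.

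The 3 TRAP genes were lower in IP than in input by over 2-fold in WT, and none passed in siTDP43. With the GC trend removed the WT values of SSR1 and SSR3 were -0.73 and -0.59, under 2-fold. SSR1 held 263, 253 and 259 CPM in WT input, 98.1, 112 and 99.0 CPM in WT IP, and 194 and 183 CPM in WT IgG. In siTDP43 SSR1 was at 158, 159 and 178 CPM in input, 128, 128 and 131 CPM in IP, and 58.0, 47.7 and 54.1 CPM in IgG. IgG thus lay above IP in WT and below it in siTDP43, with no overlap either time. SSR1 IP over IgG was -0.89 ± 0.06 in WT and 1.20 ± 0.10 in siTDP43 (adjusted p = 1.40e-09), and the interaction over IgG, 2.14 ± 0.12 (adjusted p = 1.22e-17), exceeded the 0.97 ± 0.10 over input (adjusted p = 9.22e-11). The interaction of IgG over input was -1.17 ± 0.12 (adjusted p = 7.89e-11).

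SSR2 held 448, 449 and 446 CPM in WT input, 145, 140 and 135 CPM in WT IP, and 225 and 196 CPM in WT IgG. In siTDP43 it held 309, 303 and 315 CPM in input, 339, 294 and 299.5 CPM in IP, which overlapped input, and 206, 200 and 188 CPM in IgG. SSR2 had the lowest log2 fold change of WT IP over input among the members, -1.67 ± 0.05 (adjusted p = 7.49e-19). Its interactions were 1.69 ± 0.09 over input (adjusted p = 1.23e-18) and 1.24 ± 0.10 over IgG (adjusted p = 2.29e-13).

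SSR3 held 490, 479 and 495 CPM in WT input, 206, 207 and 210 CPM in WT IP, and 422 and 423 CPM in WT IgG. In siTDP43 the values were 232, 239 and 266 CPM in input, 343, 323 and 335 CPM in IP, and 381, 374 and 328 CPM in IgG. SSR3 IP was therefore below both controls in WT, and above input and overlapping IgG in siTDP43. Its log2 fold change of WT IP was -1.23 ± 0.05 over input (adjusted p = 1.29e-17) and -1.04 ± 0.05 over IgG (adjusted p = 8.07e-15). The SSR3 interactions were 1.68 ± 0.09 over input (adjusted p = 5.18e-19) and 0.91 ± 0.10 over IgG (adjusted p = 1.05e-10), the latter 0.03 with the GC trend removed. Input levels of SSR1, SSR2 and SSR3 were lower in siTDP43, by log2 changes of -0.64 ± 0.04, -0.53 ± 0.04 and -0.99 ± 0.04, and none overlapped between genotypes.

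**Figure D2:**
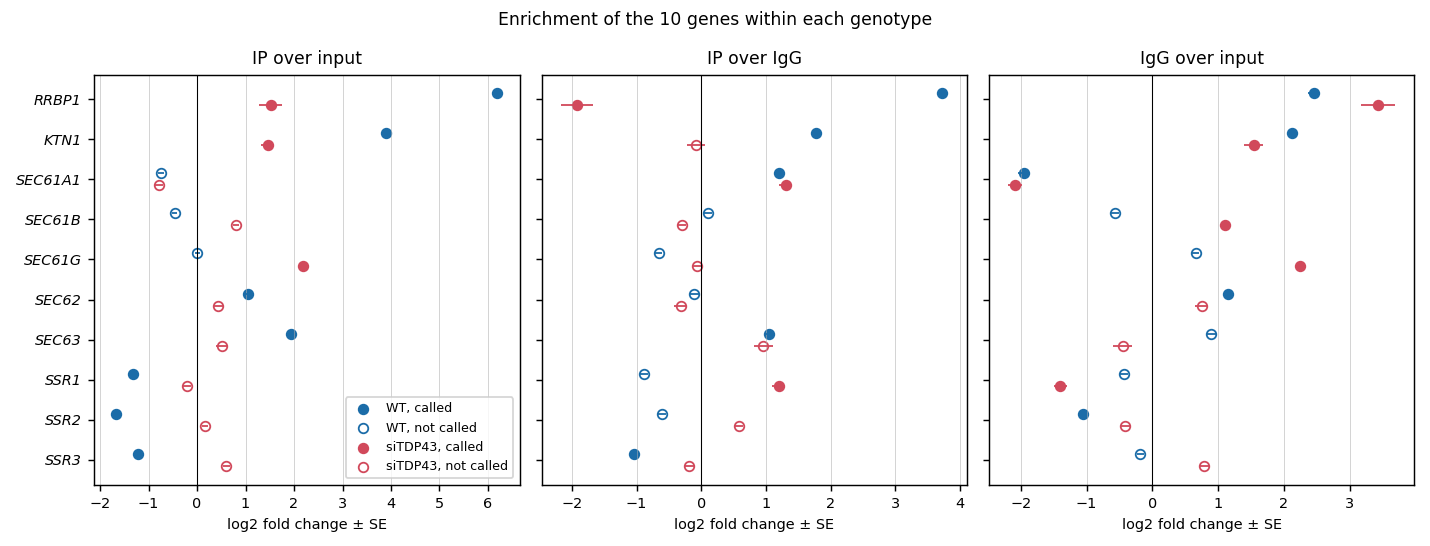
Log2 fold change with its SE for each gene within WT (blue) and siTDP43 (red), in 3 panels for IP over input, IP over IgG and IgG over input; filled points passed an adjusted p under 0.05 and a fold above 2. RRBP1 over IgG lay at 3.73 in WT and at -1.92 in siTDP43, while SEC61A1 lay at 1.21 and 1.30.

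Counted together, 4 members were higher in WT IP than in input (RRBP1, KTN1, SEC62 and SEC63) and 3 lower (SSR1, SSR2 and SSR3), beside 30.2% and 27.3% of all genes tested. Over IgG, 4 were higher (RRBP1, KTN1, SEC61A1 and SEC63) and SSR3 was lower, beside 35.2% and 17.8%. In WT IgG over input 3 were higher (RRBP1, KTN1 and SEC62) and 2 lower (SEC61A1 and SSR2, the latter at -0.97 and under 2-fold without WT IgG replicate 2), beside 24.4% and 36.6%. A gene that passed in IP against both controls is called ac4C(+) here, a name taken from the study, and in WT these members were RRBP1, KTN1 and SEC63, 3 of 10 beside 15.6% of all genes. The folds here were TMM-scaled edgeR estimates with an adjusted p, not the FPKM ratios and tests behind the study's own list, so membership can differ. In siTDP43 no member was ac4C(+), beside 10.3%. There 3 members were higher in IP than in input (RRBP1, KTN1 and SEC61G) and none was lower, beside 26.8% and 25.4%, but SEC61A1 was past 2-fold lower with total count scaling (-1.12) and on log2(FPKM + 1) (-1.10). Over IgG 2 were higher (SEC61A1 and SSR1) and RRBP1 was lower, beside 34.0% and 15%. In siTDP43 IgG over input 4 were higher (RRBP1, KTN1, SEC61B and SEC61G) and 2 lower (SEC61A1 and SSR1), beside 24.7% and 41.0%. The comparisons within a genotype share libraries, and with 10 members nothing particular to them is read from these shares. SEC61A1 and SSR3 lost their WT calls over IgG with the GC trend removed (0.97 and -0.57), SSR3 also with total count scaling (-0.92) and on log2(FPKM + 1) (-0.90), and in siTDP43 IgG over input KTN1 and SEC61B fell under 2-fold with total count scaling (0.99 and 0.55) and on log2(FPKM + 1) (0.88 and 0.55), and SEC61B in 1 fit of all libraries (0.87). With the GC trend removed SSR1 also fell under 2-fold in siTDP43, to 0.95 over IgG and -0.84 for IgG over input, while SEC61A1 passed 2-fold in WT IP over input (-1.02), SEC63 in WT IgG over input (1.06), and SEC62 and SSR3 in siTDP43 IgG over input (1.52 and 1.39).

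Between genotypes, the interaction over input passed for 9 members: SEC61B, SEC61G, SSR1, SSR2 and SSR3 were higher in siTDP43 and RRBP1, KTN1, SEC62 and SEC63 lower, beside 31.5% and 36.3% of all genes. Over IgG it passed for 7, with SEC61G, SSR1, SSR2 and SSR3 higher and RRBP1, KTN1 and SEC61B lower, beside 34.9% and 25.9%. IgG over input differed for all 10, 5 in each direction, beside 27.0% and 37.4%, a count that 5 members did not keep under other processing. RRBP1, KTN1 and SEC62 lost their calls with the GC trend removed (0.31, -0.17 and 0.025), RRBP1 also on log2(FPKM + 1) (-0.048), and SSR2 went from 0.45 to 0.12 with total count scaling and to 0.13 on log2(FPKM + 1). The fifth of them, SEC61A1, had the smallest value (-0.34 ± 0.14, adjusted p = 0.0415), and it lost its call without WT IgG replicate 1 (-0.22, adjusted p = 0.272) as well as without WT input replicate 1 or 3, siTDP43 input replicate 1 or 2, and siTDP43 IgG replicate 1 or 3 (-0.34 to -0.28). SEC61A1 also lost it with DESeq2 or its size factors (-0.17 each), with other filters on low counts (-0.31 and -0.27) and with halved counts (-0.34). In the inputs 1 member was higher in siTDP43 and 7 lower, beside 38.6% and 40.6%.

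**Figure D3:**
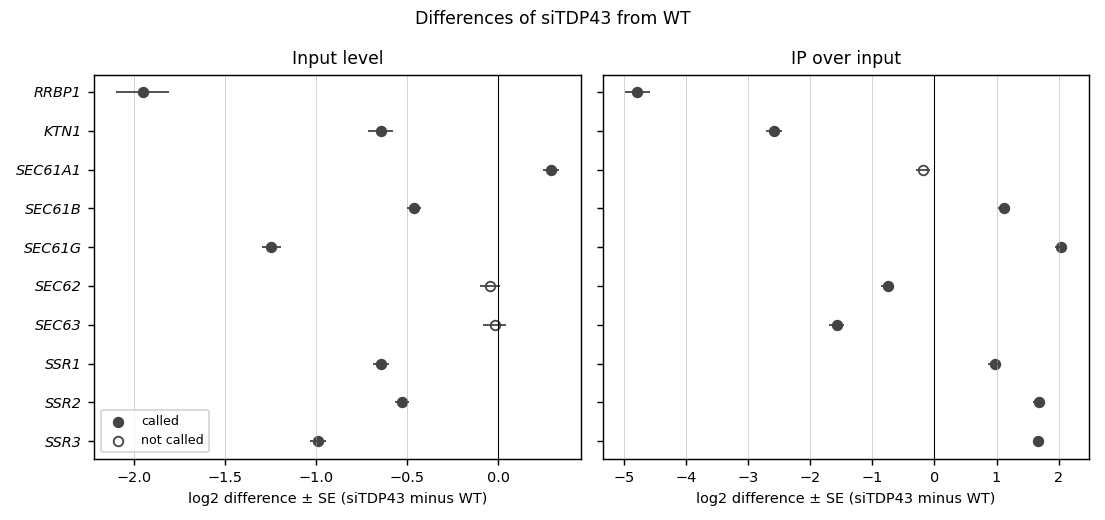
Difference of siTDP43 from WT on the log2 scale, with its SE, for the input level (left) and for IP over input (right) of each gene; filled points passed an adjusted p under 0.05. RRBP1 was lowest in both panels, at -1.95 and -4.79, and SEC61G was at -1.24 in input and 2.04 in IP over input.

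The 4 members that were higher in WT IP than in input differed in the base composition of their exons. RRBP1 has 59.6% GC in its exons, at percentile 81.7 of the genes tested, while KTN1 (39.2%), SEC62 (36.6%) and SEC63 (39.8%) lie at percentiles 9.80, 2.84 and 12.0. KTN1 has 37.1% A, at percentile 99.6. Cytidine makes up 27.3% of RRBP1 exons and 16.6% of KTN1 exons, against a median of 24.3% over all genes tested. The longest run of A was 6 bases in RRBP1, 10 in KTN1, 9 in SEC62 and 22 in SEC63, with a median of 6 over all genes. Among the members depleted from WT IP, SSR1 and SSR3 have 41.0% and 40.0% GC and SSR2 52.0%, and their longest runs of A were 13, 10 and 5 bases. None of the 10 genes shares exonic bases with another gene of the table.

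Other genes of ER targeting and translocation were taken from 10 lists with 75 genes outside the members, all of them tested. In WT IP over input 6 of the 75 rose and 32 fell, beside 30.2% and 27.3% of all genes, with a median log2 fold change of -0.75, against 0.01 over all genes tested. RRBP1 took place 1, KTN1 place 2 and SEC63 place 5 of the 85 genes of the pathway in that comparison. In WT IP over IgG these 3 genes took places 3, 8 and 14, and in WT IgG over input places 3, 5 and 20. For WT IP over input, the largest rises among the other 75 were C19orf63 (2.81 ± 0.07), of the ER membrane complex, and CKAP4 (2.72 ± 0.06), which encodes a structural protein of ER sheets. The largest falls were SRP9 (-3.44 ± 0.07), a protein of the signal recognition particle, and TRAM1 (-3.35 ± 0.08), a membrane protein next to the channel. C19orf63 and CKAP4, like KTN1 and RRBP1, were above input in IgG also. CKAP4 had 254 ± 9.28 CPM (SD, n = 2) in WT IgG and 260 ± 7.98 CPM (SD, n = 3) in WT IP. C19orf63 had 127 ± 0.115 CPM in WT IgG and 124 ± 5.50 CPM in WT IP, so its rise over input was as large with IgG.

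For the interaction over input, 44 of the 75 were higher in siTDP43 and 15 lower, beside 31.5% and 36.3% of all genes, with a median of 0.54 against -0.19 over all genes tested. The signal recognition particle and its receptor had 7 higher and 1 lower of 8, the oligosaccharyltransferase 9 and 2 of 12, and the ER membrane complex 8 and 1 of 10. Tail-anchored protein insertion had 3 higher and 3 lower of 7, and the multipass translocon 2 and 2 of 7. The lumenal chaperones had 4 and 3 of 8, and signal peptidase 3 and 0 of 5. ER tubule-shaping proteins had 5 and 0 of 10, and the other channel and TRAP genes 3 and 1 of 4. Other sheet and ribosome-binding proteins had 0 higher and 2 lower of 4. RRBP1 took place 85 and KTN1 place 84 of 85, while TUSC3 (3.28 ± 0.17), an oligosaccharyltransferase subunit, and TRAM1 (2.71 ± 0.12) were the highest of the named genes. Over IgG, 46 of the 75 were higher and 14 lower, beside 34.9% and 25.9% of all genes, with a median of 0.86 against 0.24. RRBP1 was again in place 85, and KTN1 was in place 79. Other sheet and ribosome-binding proteins had 3 higher and 0 lower of 4 over IgG, with a median of 0.68. Thus SEC61B, SEC61G, SSR1, SSR2 and SSR3 had the sign of most of the 75 genes in the interaction over input, and RRBP1, KTN1, SEC62 and SEC63 the opposite sign.

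**Figure D4:**
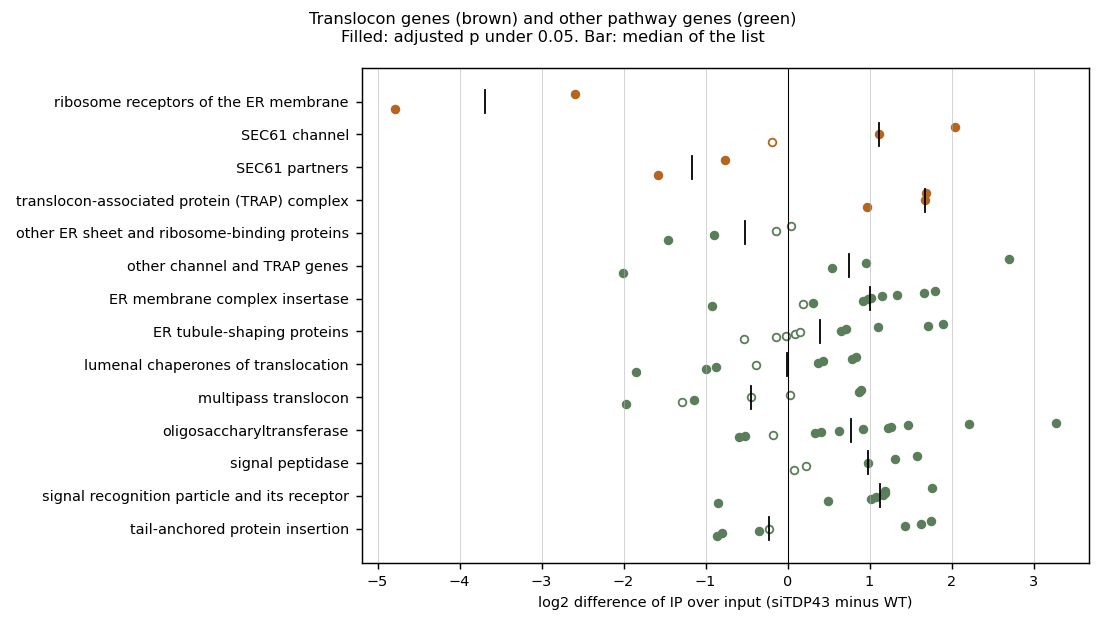
Difference of IP over input between siTDP43 and WT on the log2 scale, with 1 point per gene in rows by list; the members are brown and the other pathway genes green, filled points passed an adjusted p under 0.05, and the bar is the median of the list. RRBP1 (-4.79) and KTN1 (-2.59) are the lowest points, and the 3 TRAP genes lie between 0.97 and 1.69.

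In the inputs, 34 of the 75 other genes were higher in siTDP43 and 36 lower, beside 38.6% and 40.6% of all genes, with a median of -0.08 against -0.05 over all genes tested. The lumenal chaperones of translocation had 1 higher and 7 lower of 8, among them HSPA5, which encodes BiP, with 3205 ± 49.4 CPM in WT input and 631 ± 2.34 CPM in siTDP43 input (log2 change -2.34 ± 0.03, adjusted p = 2.67e-31). TUSC3 had the largest fall (-2.55 ± 0.07) and UBL4A, a factor of tail-anchored protein insertion, the largest rise (2.62 ± 0.05). RRBP1, at -1.95, took place 82 of the 85 in input.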

How the data were processed

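Poly(A) RNA of HEK293T cells was measured in 17 acRIP-seq libraries, grouped by their titles. The authors trimmed reads with Trim Galore 0.6.7, aligned them with STAR 2.7.10a and counted unique alignments per gene with featureCounts 2.0.2; the deposited values are raw counts, with gene length beside them. The processing notes name mm10 and the methods hg19 for these cells. Exon positions of the table gave its exon lengths, which cannot tell the genomes apart. The RRBP1 probe sequence was found in the GRCh37 sequence read at that gene's exon positions, and hg19 was used. Among counts from 1 to 20, 81.3 to 95.9% were even, so mates appear to have been counted singly. Without molecular identifiers, p-values and counts cover the spread between libraries and counting error, not molecules, and although the study states that most of its experiments used independent samples, no source says so of these libraries.

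Counts were tested with edgeR 4.0.16 (R 4.3.3; quasi-likelihood F test, two-sided, TMM, filterByExpr with a minimum count of 10) and adjusted by Benjamini-Hochberg over all genes tested. Inputs were fitted in 6 libraries, each genotype's enrichment in 8 or 9, and interactions in 17. Calls were made at an adjusted p under 0.05, with a fold above 2 as well for enrichment. The SE of an edgeR log2 value was its absolute size divided by the square root of its F statistic. CPM used TMM over the 17 libraries. The pipeline was tested on simulated data in which far fewer genes differed than were called here. That test does not cover TMM scaling where many genes differ. Replicates were compared first: chi-square per degree of freedom was 3.26 to 9.43 between them, so none was a copy. Total count scaling moved the median of all genes by up to 0.55 (log2), in siTDP43 IgG over input. Changes are relative within libraries. The study added a β-globin probe with ac4C to the poly(A) RNA before pull-down, and this spike-in was not used here. Alternatives were DESeq2 1.42.0, its size factors, total count scaling, other filters, halved counts, a GC trend removed, limma 3.58.1 on log2(FPKM + 1), 1 fit of all libraries, a replicate block, other thresholds and leaving out each library.

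The members, lists and tests were chosen with earlier results of these data known. All members are named. Of the lists, genes are named from the 2 largest rises and falls called per contrast, where the mean count reached 100 and the groups did not overlap.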

Additional observations from a re-analysis of the deposited data

Results flagged for a closer look

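The difference between siTDP43 and WT in enrichment passed the interaction test for most members. Among all genes tested, 31.5% were higher and 36.3% lower for IP over input, and 34.9% and 25.9% for IP over IgG. Nothing particular to the members is read from their number. For IP over input the log2 differences, siTDP43 minus WT, were -4.79 for RRBP1, -2.59 for KTN1, -1.58 for SEC63 and -0.76 for SEC62. They were 1.12 for SEC61B, 2.04 for SEC61G, 0.97 for SSR1, 1.69 for SSR2 and 1.68 for SSR3. For IP over IgG they were -5.56 for RRBP1, -1.80 for KTN1, -0.36 for SEC61B, 0.65 for SEC61G, 2.14 for SSR1, 1.24 for SSR2 and 0.91 for SSR3.

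The control pull-down differed as well, with a difference of IgG over input of 0.77 for RRBP1, -0.79 for KTN1, -0.34 for SEC61A1, 1.47 for SEC61B and 1.39 for SEC61G. For the others it was -0.60 for SEC62, -1.55 for SEC63, -1.17 for SSR1, 0.45 for SSR2 and 0.76 for SSR3. Of all genes tested, 27.0% were higher and 37.4% lower for IgG over input. For SEC63 the difference in the control pull-down was about that in IP over input, and for SEC61B it was larger. It was also larger in size for SEC61A1 (-0.34 against -0.18, which did not pass) and, with the opposite sign, for SSR1 (-1.17 against 0.97). For the other members it was smaller in size, with SEC62 the nearest (-0.60 against -0.76). The part of unspecific binding in these differences was not tested. Groups of 2 or 3 libraries are too small for a check of single outlying libraries.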

How the results depend on the processing

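Of the counts of members called in both directions together, 3 moved by over 1.5 times: WT IP over IgG had 3 with the GC trend removed, WT ac4C(+) members were 1 (RRBP1) at a fold over IgG above 5, and siTDP43 ac4C(+) members were 2 when IP over IgG alone was asked. The cause was not tested for the first; the others follow from the rule. Counted by direction, more moved. Members lower in WT IP over IgG went from 1 to 0 with total count scaling, with the GC trend removed and on log2(FPKM + 1), and in WT IgG over input from 2 to 1 at a mean of at least 50 counts and without WT IgG replicate 2. Members higher in siTDP43 IgG over input went from 4 to 2 with total count scaling and on log2(FPKM + 1), and those lower from 2 to 1 with the GC trend removed. In siTDP43 IP over input 1 member was lower with total count scaling and on log2(FPKM + 1) against 0, and over IgG 1 against 2 was higher with the GC trend removed. Between genotypes the members higher and lower were 3 and 6 over IgG with the GC trend removed, against 4 and 3, and for IgG over input 4 and 3 with it removed and 3 and 5 on log2(FPKM + 1), against 5 and 5. The WT ac4C(+) members RRBP1, KTN1 and SEC63 were the same under all other alternatives except IP over IgG alone, which added SEC61A1. Some values changed sign, among them 3 called interactions: RRBP1 and SEC62 for IgG over input (0.77 and -0.60) and SEC61G over IgG (0.65). With total count scaling SEC62 WT IP over IgG was 0.022, SSR2 siTDP43 IP over input -0.18, and siTDP43 IP over IgG 0.12 for KTN1, 0.15 for SEC61G and 0.025 for SSR3. On log2(FPKM + 1) these were 0.020, -0.18, 0.12, 0.15 and 0.027, and the interaction of IgG over input of RRBP1 was -0.048. With the GC trend removed SEC62 WT IP over IgG was 0.48, SSR1 siTDP43 IP over input 0.11, SEC63 siTDP43 IgG over input 0.17, the interaction over input of SEC61A1 0.018, that over IgG of SEC61G -0.24 and that of IgG over input of SEC62 0.025. The interaction over IgG of SEC61A1 was -0.076 with DESeq2 and with its size factors. SEC61G WT IP over input was -0.035 with no filter and -0.0045 in 1 fit of all libraries, where SEC61G siTDP43 IP over IgG was 0.013. Leaving out single libraries, input changes ran from -0.11 to 0.00030 for SEC62 and from -0.073 to 0.036 for SEC63, SEC61G WT IP over input from -0.023 to 0.042, KTN1 siTDP43 IP over IgG from -0.24 to 0.028, and the interaction over IgG of SEC63 from -0.20 to 0.075; where 1 WT IgG library was left, it was assumed to vary like the other groups. Same-numbered libraries of different groups had residual correlations from -0.021 to 0.027. No pairing by number showed in these values, which cannot exclude it where variation from library preparation is larger than that between samples. With a replicate block 9 members passed for IP over input between genotypes, and SEC61A1 in IgG over input, at -0.30, lost its call, the only one lost. Depth limits RRBP1 most, with 56 to 170 counts per siTDP43 IP library.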
